A study of Mus musculus with 14 samples.

Results

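The regions described here are intragenic stretches of acetylated chromatin in regenerating mouse liver. Each lay inside the span of a protein-coding gene, more than 1 kb from every coding gene end, and was called as a peak of histone H3 lysine 9 acetylation (H3K9ac) in every one of 12 libraries. Overlapping peaks of the 12 libraries were merged into 57979 regions, of which 12375 held a peak in all 12. Of these shared regions, 1865 were narrower than 6000 bp and met the position rule, 8227 lay within 1 kb of a coding gene end, 1241 lay outside coding genes, and 1042 were 6000 bp or wider. The members were thus selected on where peaks were called, on their positions and on their merged width. Their presence in every library is no finding. A peak call itself depends on the tags of that library, so the members were not selected free of tag counts. No other threshold on tags was set. Another 27194 intragenic regions of the same position and width were called in 1 to 11 libraries and have no tag count in the others, so they are not described further.

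The libraries came from chromatin immunoprecipitation and sequencing (ChIP-seq) of livers of male C57BL6/J mice aged 2 to 3 months, 12 h after partial hepatectomy, the surgical removal of part of the liver that starts its regrowth. The study asked whether holding off the fall in blood glucose after the operation alters H3K9ac. The titles divide the libraries into 6 of d22 and 6 of pbs, each called against a pooled input library of its own title. Title and treatment label disagree for every library: the label is vehicle where the title is d22, and 22.5% dextrose where the title is pbs. Both inputs are labelled as dextrose. Groups are therefore named by title, differences are d22 minus pbs, and no library is assigned to a treatment. No label states that each library is a different mouse, so a p-value here reflects the spread among these samples alone, and that spread may be technical.

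H3K9ac is laid down by histone acetyltransferases on nucleosomes beside active promoters, where the signal is usually strongest just downstream of the start of transcription. It also marks active enhancers, many of which lie in introns of genes expressed in the tissue. An acetylated region inside a gene, away from its annotated ends, can therefore hold an alternative promoter of that gene, a promoter of another transcript, or an intronic regulatory element. The annotation used here gives gene spans and transcription starts but no exons, so regions were not assigned to exons, introns or UTRs.

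Inner starts, meaning annotated starts of a host gene inside an intragenic region, ranged from CpG-rich to CpG-free. To show this range, the 250 bases before the inner start are given for 5 of the 7 inner-start regions whose tag counts differed between the title groups. They read 5′ to 3′ in the direction of transcription, come from RefSeq on mm10 (GRCm38.p6), and have every CpG dinucleotide in capitals.
Cdkn1a, chr17:29093519-29093768, plus strand: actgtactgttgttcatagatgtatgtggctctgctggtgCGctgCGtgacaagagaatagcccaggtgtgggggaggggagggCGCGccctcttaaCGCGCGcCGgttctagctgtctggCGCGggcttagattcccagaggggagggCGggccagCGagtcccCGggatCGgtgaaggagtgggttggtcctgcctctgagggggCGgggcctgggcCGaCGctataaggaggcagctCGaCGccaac
Cbfa2t3, chr8:122678176-122678425, minus strand: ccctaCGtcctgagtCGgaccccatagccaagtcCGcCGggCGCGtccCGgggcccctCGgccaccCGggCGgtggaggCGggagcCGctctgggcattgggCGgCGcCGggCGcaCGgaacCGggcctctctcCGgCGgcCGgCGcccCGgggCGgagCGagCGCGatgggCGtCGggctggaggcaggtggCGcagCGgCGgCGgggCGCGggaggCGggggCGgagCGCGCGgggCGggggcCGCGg
Atp2b2, chr6:113891540-113891789, minus strand: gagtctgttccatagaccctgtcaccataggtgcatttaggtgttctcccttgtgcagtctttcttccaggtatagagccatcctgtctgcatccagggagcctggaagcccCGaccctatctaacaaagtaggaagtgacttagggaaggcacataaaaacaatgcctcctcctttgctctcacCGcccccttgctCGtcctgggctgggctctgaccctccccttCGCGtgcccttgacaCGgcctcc
Csad, chr15:102189044-102189293, minus strand: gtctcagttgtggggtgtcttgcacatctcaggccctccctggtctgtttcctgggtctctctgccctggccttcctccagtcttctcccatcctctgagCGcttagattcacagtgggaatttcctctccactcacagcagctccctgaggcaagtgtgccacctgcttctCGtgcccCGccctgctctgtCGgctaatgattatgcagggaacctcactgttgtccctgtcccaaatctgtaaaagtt
Sult2a8, chr7:14438552-14438801, minus strand: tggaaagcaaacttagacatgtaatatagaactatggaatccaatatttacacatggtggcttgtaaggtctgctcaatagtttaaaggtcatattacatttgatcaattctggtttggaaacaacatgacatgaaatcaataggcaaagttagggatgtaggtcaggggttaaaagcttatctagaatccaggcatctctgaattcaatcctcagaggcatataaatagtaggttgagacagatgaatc
The stretch of Cbfa2t3 held 43 CpGs at 83.2% GC, and that of Cdkn1a 19 at 64.8% GC. Those of Atp2b2 and Csad held 6 and 4 CpGs, both at 55.6% GC. The stretch of Sult2a8 held 0 CpGs at 36.0% GC.

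Of the 1790 intragenic regions off chromosome 18, 630 (35.2%) held at least 1 annotated inner start of the host gene, 61 (3.41%) held only the start of a noncoding gene, and 1099 (61.4%) held no annotated start. The other 75 regions lay on chromosome 18, for which starts were not matched. Starts were listed for 17492 of the 21900 coding genes. A region whose host had no listed start could not match an inner start, and off chromosome 18 it was not counted among the 630. Of 1843 regions with 1 host, 1483 had a host with a listed start. The acetylation summit was usually a short way into the transcript from the inner start. It lay downstream of the start in 547 of 630 regions (86.8%), at a median of 245 bp, and within 500 bp of it in 526 (83.5%). In Cdkn1a the summit was 257.5 bp downstream of the inner start, in Cbfa2t3 329 bp, in Atp2b2 364.5 bp, in Sult2a8 761.5 bp and in Csad 1422.5 bp.

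**Figure D1:**
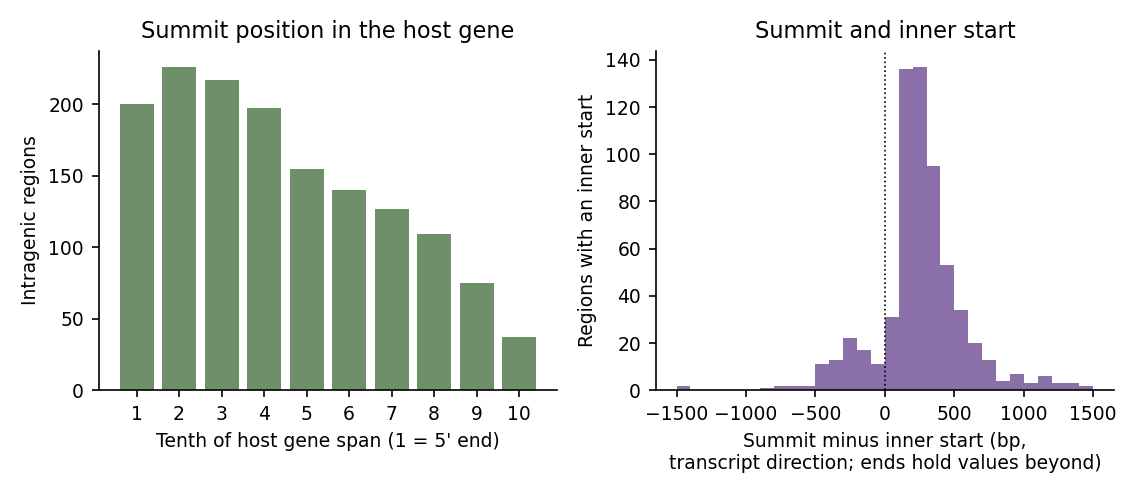
Left, number of intragenic regions (y axis) by the decile of the host gene span that holds the summit (x axis, 1 at the 5′ end), for 1483 regions with a host of known strand; counts fall from 226 in decile 2 to 37 in decile 10. Right, number of regions with an inner start (y axis) by distance in bp from start to summit (x axis, positive downstream, end bins hold values beyond); most of the 630 summits sit downstream, at a median of 245 bp.

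Intragenic regions crowded toward the 5′ part of long genes. Among 1483 regions with a host of known strand, 995 (67.1%) had their summit nearer the 5′ than the 3′ end of the gene. By decile of the gene span, decile 1 held 200 regions, decile 2 held 226, decile 5 held 155 and decile 10 held 37. The median summit lay 17422.5 bp from the 5′ end. Host genes numbered 1444 and had a median span of 57537.5 bp, against 17146 bp for all 21900 coding genes. A longer gene offers more room away from its ends, and the rule itself excludes genes too short to hold such a region. In 1174 hosts there was 1 intragenic region, in 192 there were 2, and in 78 at least 3. The regions themselves were 623 to 5998 bp wide, with a median of 2716 bp.

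Genes with an acetylated inner start often lacked a shared region at their outermost 5′ end. Of 612 hosts with an inner-start region and known strand, 199 (32.5%) had a shared region within 1 kb of the 5′ end of the gene span, and 303 had no peak there in any library. Of 556 hosts whose intragenic regions held no inner start, 398 (71.6%) had a shared region at the 5′ end and 94 had no peak there. Cdkn1a is an example of the first kind. This gene encodes p21, an inhibitor of cyclin-dependent kinases, and its 5′ end carried a peak in 1 library, whereas its inner-start region, with a summit 3047.5 bp into the gene, carried one in all 12. Cipc, a repressor of the circadian clock, and Dlgap4, a scaffold protein gene, had a peak at the 5′ end in 0 libraries and inner-start regions among the densest of all. These counts are descriptions and were not tested. Coding genes had 21263 listed starts for 17492 genes, so an inner start may be the only start listed for its host. Whether a listed start lay at the 5′ end of each host was not examined.

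A peak was absent from more annotated inner starts than it was present at. Of 3881 inner starts more than 1 kb from coding gene ends, 2039 (52.5%) had no peak in any library and 767 (19.8%) lay in the intragenic regions. The remainder lay in regions of 6000 bp or more (234), in regions that reached a gene end (418), or in regions called in some libraries only (423). Over the 250 bases before the start, the ratio of observed to expected CpGs had a median of 0.691 at the 767 starts in intragenic regions, 0.244 at the 2039 without a peak, and 0.530 at 21263 starts of coding genes. The ratio reached 0.6 at 62.1%, 12.4% and 44.7% of these starts. The middle range of GC content, between its quartiles, was 52.8% to 67.2%, 44.0% to 56.0% and 47.2% to 64.0%. The E-box CACGTG, which reads the same on both strands, was present at 6.78% of the starts in intragenic regions, 3.83% of those without a peak and 6.63% of all coding starts. The AP-1 motif TGACTCA, searched on both strands, was present at 4.17%, 5.00% and 4.06%. Neither motif holds the other, and neither occurs in the 5 stretches printed above. In the same order, the C/EBP motif TTGCGCAA was at 0.522%, 0.0981% and 0.198%, and the CRE motif TGACGTCA at 1.69%, 0.932% and 1.92%. The forkhead motif TGTTTAC was at 1.69%, 2.94% and 2.62%, and the HNF4A motif CAAAGTCCA at 0.391%, 0.294% and 0.390%. The E-box, C/EBP and CRE motifs each hold a CpG, and whether motif shares follow CpG content was not tested.

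Acetylation was less dense in intragenic regions than at gene ends. Level is given as the median number of tags per kb of called peak, scaled to 10000000 tags of the library. Intragenic regions stood at 37.5 to 54.4 over the 12 libraries, with a mean of 44.0 ± 4.91 (SD, n = 12), and gene-end regions at 63.8 ± 7.81 (SD, n = 12). The intragenic median was lower in 12 of 12 libraries, by a mean of 19.8, a ratio of means of 0.690 (two-sided exact sign-flip permutation over libraries, p = 0.000488, the smallest that 12 libraries allow). With only peaks of score 100 or more the difference was -11.8. The difference from intergenic shared regions averaged 0.471 and was positive in 8 of 12 libraries (exact sign-flip permutation p = 0.242). It was 4.00 with only peaks of score 100 or more (exact sign-flip permutation p = 0.000488) and -0.41 with only regions over 2 kb from gene ends (exact sign-flip permutation p = 0.321). Intragenic peaks were also called shorter, at a median of 1676 bp a region against 1911 bp at gene ends. That difference of -234 bp had the same sign in 12 of 12 libraries (exact sign-flip permutation p = 0.000488). With only peaks of score 100 or more it was -23.7 bp and did not pass (exact sign-flip permutation p = 0.238).

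The intragenic regions were themselves of unequal level. Those with an inner start stood at 58.5 ± 6.93 tags per kb and those with no annotated start at 39.0 ± 4.54 (SD, n = 12 libraries each). The difference of 19.5 was positive in 12 of 12 libraries, a ratio of means of 1.499 (two-sided exact sign-flip permutation p = 0.000488). This comparison was chosen after the data were seen. The regions with no annotated start include those of hosts for which no start was listed. The inner-start regions were also called longer in 12 of 12 libraries, by a mean of 309.8 bp.

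**Figure D2:**
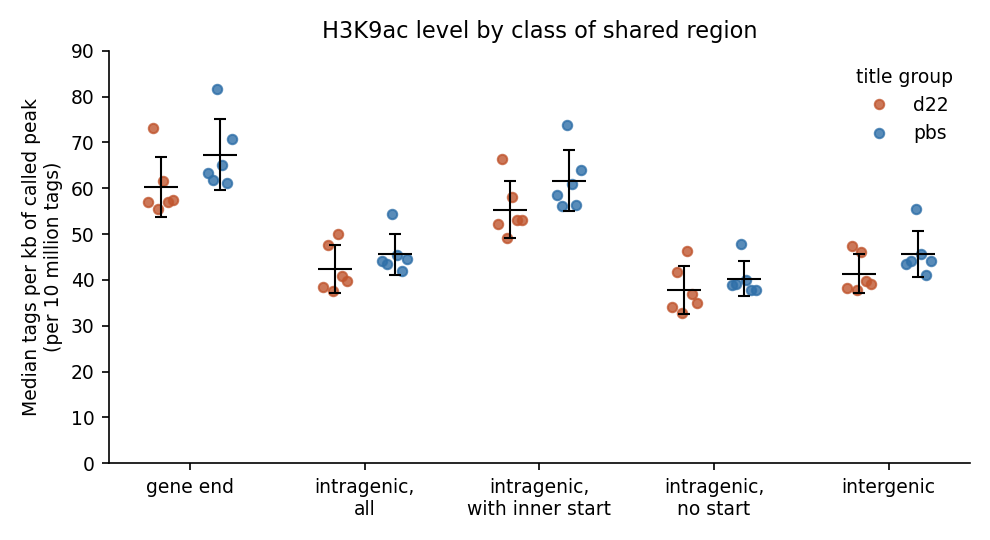
Median tags per kb of called peak per 10000000 tags (y axis, from 0) in each of the 12 libraries (points), by class of shared region (x axis) and title group (colour); horizontal bars are means and whiskers SD, n = 6. Intragenic regions with an inner start sit near the gene-end level, at 58.5 against 63.8 over all libraries, and those without a start at 39.0.

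Of the 10 intragenic regions with the highest mean level, 5 held an inner start. These were in Rcbtb2 (128 tags per kb), Dlgap4 (115), Rpl19 (115), Cipc (111) and Atxn2l (111). Rpl19 encodes a protein of the large ribosomal subunit. A region of Mia3, which encodes a collagen export receptor, held the start of a noncoding gene and stood at 109.6. Nr5a2, a nuclear receptor gene that controls bile acid synthesis, held a region with no annotated start at 110.1, centred 11433 bp from its 5′ end (chromosome 1, 136945276 to 136950195). Its CPM, which are tag counts scaled to all tags in shared regions, were 194 at the lowest, 229 at the median and 252 at the highest in d22, and 236, 258 and 292 in pbs. The groups overlapped, and the log2 difference of -0.20 ± 0.08 (SE) did not pass (edgeR adjusted p = 0.394).

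Among the densest were also microRNA loci. The region of the predicted coding gene Gm38821 (chromosome 6, 51269119 to 51271640) ranked 4 of 1865, at 113 tags per kb, and holds the hairpin of Mir148a, a microRNA abundant in hepatocytes. The summit of the region lay 693 bp from the middle of this hairpin. The mature 3p arm of Mir148a, with the seed (bases 2 to 8) in capitals, is as follows.
mmu-miR-148a-3p: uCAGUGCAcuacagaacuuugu
The region had 104, 111 and 151 CPM (lowest, median and highest) in d22 and 72.9, 88.3 and 110 in pbs. The groups overlapped and the log2 difference of 0.37 ± 0.12 (SE) did not pass (edgeR adjusted p = 0.206). In the authors' fold enrichment the direction turned, to a log2 difference of -0.83 (limma adjusted p = 0.00191). Of 1005 mouse hairpins in the RefSeq table, 7 lay in intragenic regions. That of Mir7655 lay in a region of Mllt10 that ranked 9, at 110 tags per kb, its middle 169.5 bp from the summit. Mir107 was another of them, in Pank1, which encodes the first enzyme of coenzyme A synthesis, at 69.5 tags per kb.
mmu-miR-107-3p: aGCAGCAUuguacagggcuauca
None of the 13 mature arms of the 7 hairpins share a seed with one another, and none of their regions passed the edgeR test of tag count between groups.

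The most intragenic regions in 1 host gene numbered 6, in Arid5b, Fkbp5, Gse1, Nfia, Rbm47 and Synpo. Fkbp5 is a glucocorticoid-induced co-chaperone gene, and Nfia encodes a transcription factor of hepatocytes. An inner start was present in 2 of the regions of Gse1 and in none of those of the other hosts off chromosome 18, where Synpo lies. Nfia, with a span of 540811 bp, had regions from 28.6 to 84.7 tags per kb. No region of these hosts passed the test between groups, and their log2 differences ran from -0.73 to 0.61, both in Gse1.

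Depth after filtering was 6343891 to 13259411 tags a library, which sets the counting error of every region. Library d22 4 had the fewest tags and listed 44585 peaks, against 26352 to 30780 in the other 11. In bulk liver, fewer cells of a type and less acetylation per cell cannot be told apart. Of 10 hepatocyte marker genes, 10 had a shared region at a gene end. The same held for 1 of 8 macrophage, 3 of 8 endothelial, 0 of 7 stellate, 1 of 6 cholangiocyte, 1 of 6 lymphocyte, 0 of 5 neutrophil and 0 of 4 erythroid markers. None of these markers hosts an intragenic region, and none of their end regions passed the test between groups. The median log2 difference of the end regions was -0.11 for hepatocyte and 0.03 for macrophage markers. It was 0.27 for endothelial, 0.26 for cholangiocyte and 0.30 for lymphocyte markers. The summed CPM of the regions overlapped between groups for every list that had any.

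Summed over intragenic regions, acetylation did not differ between the title groups beyond the spread of the libraries. Of the tags of all shared regions they held 9.66 ± 0.312% in the 6 d22 libraries and 9.55 ± 0.299% in the 6 pbs libraries (mean ± SD, two-sided exact permutation p = 0.556). The median level averaged 42.4 ± 5.18 tags per kb for d22 against 45.6 ± 4.46 for pbs (p = 0.277 by the same exact permutation). The median called length averaged 1610 ± 253 bp for d22 against 1743 ± 274 bp for pbs (exact permutation p = 0.405). The authors' fold enrichment over input had a median that averaged 19.5 ± 2.62 for d22 against 23.2 ± 2.80 for pbs (exact permutation p = 0.0498). Adjusted over the 11 such measures compared, these 4 values of p become 0.556, 0.457, 0.457 and 0.375 (Benjamini-Hochberg, exact permutation). Each group was called against its own input, so input and group cannot be told apart in this measure, in which peaks were listed, or in how long they were.

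Of the 1865 intragenic regions, 34 differed in tag count between the title groups (edgeR quasi-likelihood test, adjusted p under 0.05), 20 higher and 14 lower in d22. This is 1.82%, against 1.01% of all 12375 shared regions. The share was 0.547% at gene ends, 0.886% outside genes and 3.36% among regions of 6000 bp or more. By direction, 1.07% were higher, against 0.453% of all shared regions, and 0.751% lower, against 0.558%. At an unadjusted p under 0.05 the intragenic share was 12.8% and that of all shared regions 10.9%. The median log2 difference was 0.01 over intragenic regions and 0.00 over all, and 959 of 1865 values were positive. Of the 630 regions with an inner start 7 were called, and of the 1099 without a start 24. Scaling to total tags of the library shifted the median of all shared regions by -0.22 and gave 70 calls, 13 higher and 57 lower, of which 27 were among the 34. With that scaling the intragenic share was 3.75%, beside 3.67% of all shared regions. With the authors' fold enrichment it was 6.33%, below the 9.87% of all shared regions (limma). Leaving out 1 library gave 16 to 36 calls. The count fell below 23 without d22 2 (19), d22 6 (17), pbs 2 (18), pbs 3 (18), pbs 4 (16), pbs 5 (20) or pbs 6 (19), and was 36 without d22 4. Of the 34, 13 kept their call whichever library was left out.

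**Figure D3:**
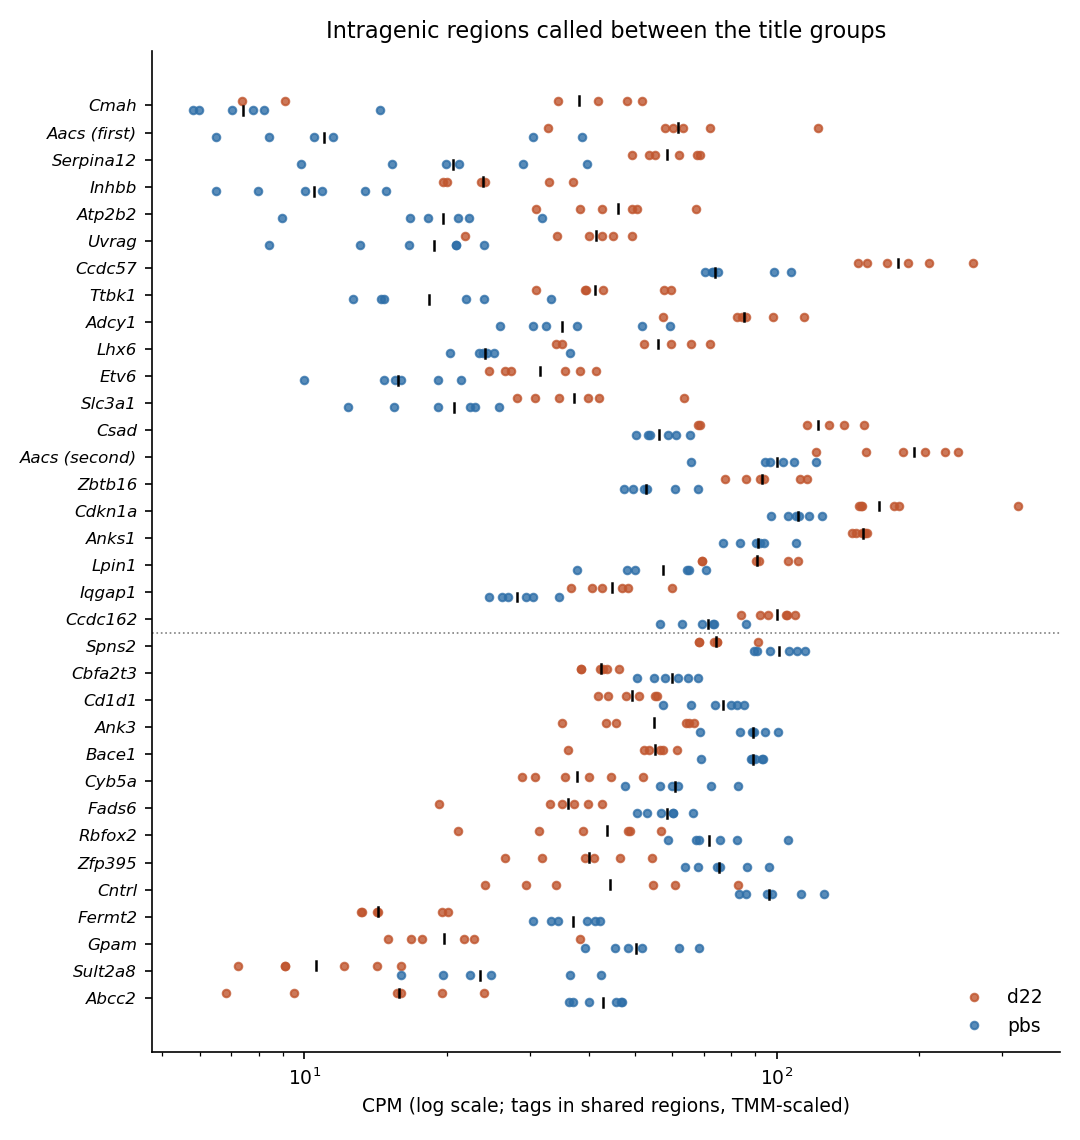
CPM of the 34 called intragenic regions (x axis, log scale) in 6 d22 and 6 pbs libraries (points) with group medians (black bars); genes are ordered by log2 fold change (y axis), and a dotted line parts the 20 regions higher in d22 from the 14 lower. The named gene is the host of the region, and the 2 Aacs regions are numbered by position.

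In the list of fat synthesis and storage genes 4 of 15 regions were called, 3 higher and 1 lower in d22, beside 1.82% of all intragenic regions. The 4 regions lie in 3 genes, and the list was chosen with earlier results of these data known. The median log2 difference of the list was 0.30, with 11 of 15 positive, beside 0.01 over all intragenic regions. Aacs encodes acetoacetyl-CoA synthetase, which turns a ketone body into a precursor of lipids, and both of its intragenic regions were higher. The first, 9603 bp from the 5′ end (chromosome 5, 125483100 to 125488283), had 32.8, 61.8 and 122 CPM (lowest, median and highest) in d22 and 6.49, 11.0 and 38.6 in pbs. The log2 fold change was 1.92 ± 0.39 (SE, edgeR adjusted p = 0.0269). The 2 groups met only at their edges, where 1 pbs library passed the lowest d22 library. Peaks of this first region covered 2087 to 4620 bp in d22 and 418 to 2550 bp in pbs. Its tags per kb overlapped between the groups, at 26.4 to 50.3 in d22 and 22.6 to 38.6 in pbs. Library pbs 2 had only 13 tags there. The second region (chromosome 5, 125494134 to 125499799) had 121, 195 and 241 CPM in d22 and 65.9, 99.9 and 121 in pbs, with no overlap. It rose by 0.94 ± 0.16 (SE) on the log2 scale (edgeR adjusted p = 0.00733). The call of the first region was lost on omitting pbs 2, pbs 4, pbs 5, pbs 6, d22 2, d22 4 or d22 6 (adjusted p up to 0.0646), and that of the second was kept throughout.

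Lpin1 encodes lipin 1, a phosphatidic acid phosphatase of triglyceride synthesis and a transcriptional coregulator. Its called region, 35095.5 bp from the 5′ end (chromosome 12, 16617338 to 16621341), had 69.3, 90.8 and 111 CPM in d22 and 37.8, 57.3 and 70.8 in pbs. The lowest d22 library lay just under the highest pbs library. The log2 fold change was 0.68 ± 0.16 (SE, edgeR adjusted p = 0.0457), and 9 of 12 omissions of a library ended the call, all but those of d22 5, d22 6 and pbs 1 (adjusted p up to 0.113). Gpam, which encodes the mitochondrial acyltransferase of the first step of triglyceride synthesis, went the other way. Its region (chromosome 19, 55093990 to 55097047) had 15.03, 19.8 and 38.4 CPM in d22 and 39.3, 50.2 and 68.4 in pbs. No d22 library reached the lowest pbs library, and the region fell by 1.24 ± 0.22 (SE) on the log2 scale (edgeR adjusted p = 0.00836), kept with any library left out.

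The next 3 called regions belong to no list, and Ccdc57, Fads6 and Cyb5a were grouped here after their values were seen. One region lay near the 3′ end of Ccdc57, a coiled-coil protein gene, and 3757 bp from Fasn, which encodes fatty acid synthase (chromosome 11, 120828923 to 120834231). It had 149, 180 and 260 CPM in d22 and 70.5, 74.1 and 107 in pbs. Every d22 library exceeded every pbs library, and the log2 fold change was 1.17 ± 0.14 (SE, edgeR adjusted p = 0.000443). Fads6, a member of the fatty acid desaturase family, held a region that was lower in d22, with 19.3, 36.1 and 42.6 CPM against 50.6, 58.6 and 66.4 in pbs. The groups did not overlap and the log2 fold change was -0.75 ± 0.16 (SE, edgeR adjusted p = 0.0269). Cyb5a encodes cytochrome b5, the electron donor of fatty acid desaturation and of some P450 reactions. Its region had 28.9, 37.8 and 52.2 CPM in d22 and 47.8, 61.0 and 82.9 in pbs, with some overlap, and a log2 fold change of -0.72 ± 0.16 (SE, edgeR adjusted p = 0.0392). The Ccdc57 call was kept with any library left out. That of Fads6 was lost on omitting pbs 2, pbs 3, pbs 4, pbs 6 or d22 2 (adjusted p up to 0.0681), and that of Cyb5a was kept only without d22 4 or pbs 1 (adjusted p up to 0.103).

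The next called regions were grouped by the role of their gene after their values were seen. Abcc2 encodes the canalicular exporter of bilirubin and drug conjugates, and its region (chromosome 19, 43810223 to 43814452) was the most reduced of all called intragenic regions. It had 6.84, 15.9 and 24.0 CPM in d22 and 36.3, 42.9 and 46.9 in pbs. Library d22 4 had only 10 tags there. All d22 libraries were below all pbs libraries, and the log2 fold change was -1.43 ± 0.24 (SE, edgeR adjusted p = 0.00616), kept with any library left out. It was the only called region of 6 in the bile acid and transport list, whose median log2 difference was 0.09. Sult2a8 encodes a hepatic sulfotransferase that acts on bile acids, and its inner-start region, the one whose upstream stretch held 0 CpGs, had 7.23, 10.6 and 16.03 CPM in d22 and 15.99, 23.6 and 42.4 in pbs. The highest d22 library was just above the lowest pbs library, and the log2 fold change was -1.26 ± 0.28 (SE, edgeR adjusted p = 0.0353). Library d22 6 had only 12 tags there. Csad encodes the decarboxylase that forms hypotaurine, the precursor of the taurine used to conjugate bile acids. Its inner-start region (chromosome 15, 102186462 to 102190060) had 68.1, 122 and 153 CPM in d22 and 50.2, 56.4 and 65.4 in pbs. The lowest d22 library lay just above the highest pbs library, and the log2 fold change was 0.98 ± 0.18 (SE, edgeR adjusted p = 0.0149), kept with any library left out. The call of Sult2a8 was lost on omitting pbs 2, pbs 4, pbs 5, d22 2, d22 3, d22 5 or d22 6 (adjusted p up to 0.0969). Slc3a1, a subunit of the transporter of cystine and basic amino acids, rose by 0.98, and Spns2, the exporter of sphingosine 1-phosphate, fell by 0.43 at an inner start (edgeR adjusted p = 0.0441 and 0.0414).

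The inner-start region of Cdkn1a was the only called region of 7 in the cell cycle and p53 list (chromosome 17, 29093440 to 29097063). It had 149, 164 and 324 CPM in d22 and 97.3, 111 and 124 in pbs. Every d22 library was above every pbs library, and library d22 4 stood far above the other 5. The log2 fold change was 0.75 ± 0.16 (SE, edgeR adjusted p = 0.0353). The call was kept without d22 4 and lost without d22 1, pbs 2, pbs 3, pbs 4, pbs 5 or pbs 6 (adjusted p up to 0.0811). Called length averaged 2783 ± 365 bp in d22 against 2750 ± 558 bp in pbs (SD, n = 6 each). Tags per kb differed by 0.60 ± 0.13 (SE) on the log2 scale and did not pass on their own (limma adjusted p = 0.102). Trp53inp1, a p53 target that promotes cell cycle arrest, had a region with a log2 difference of 0.82 ± 0.34 (SE) that did not pass (edgeR adjusted p = 0.375).

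Serpina12, Inhbb, Adcy1 and Atp2b2 each held a called region that was higher in d22. Serpina12, which encodes the serine protease inhibitor vaspin, held a region (chromosome 12, 104033197 to 104036417) with 49.3, 58.6 and 68.8 CPM in d22 and 9.84, 20.6 and 39.6 in pbs, a log2 fold change of 1.42 ± 0.24 (SE, edgeR adjusted p = 0.00751). Its 5′ end carried a peak in 1 library only. Inhbb, which encodes the βB subunit of activins, had 19.7, 23.9 and 37.0 CPM in d22 and 6.49, 10.5 and 14.9 in pbs, 2132.5 bp from its 5′ end, and rose by 1.27 ± 0.25 (SE) on the log2 scale (edgeR adjusted p = 0.0172). Peaks of the Inhbb region covered 1049 to 2021 bp in d22 and 425 to 960 bp in pbs. Its tags per kb overlapped between the groups, at 28.0 to 58.6 in d22 and 24.6 to 33.0 in pbs. Library pbs 3 had only 11 tags there. In CPM the groups overlapped neither for Serpina12 nor for Inhbb, and both calls were kept with any library left out. Adcy1, an adenylyl cyclase gene with no peak at its 5′ end in any library, had 57.4, 85.2 and 114 CPM in d22 and 26.0, 35.1 and 59.5 in pbs. Its groups overlapped slightly, and the log2 fold change of 1.13 ± 0.20 (SE, edgeR adjusted p = 0.00800) was likewise kept. Atp2b2, a plasma membrane calcium pump gene, had 31.0, 46.1 and 67.3 CPM at its inner start in d22 and 8.99, 19.7 and 31.9 in pbs, also with slight overlap. Its log2 fold change was 1.19 ± 0.25 (SE, edgeR adjusted p = 0.0265), lost without d22 5, d22 6, pbs 3, pbs 4, pbs 5 or pbs 6 (adjusted p up to 0.0603).

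The 6 called regions of Zbtb16, Etv6, Lhx6, Cbfa2t3, Zfp395 and Rbfox2 follow by gene, again grouped after their values were seen. Zbtb16, the zinc finger repressor PLZF, held a region without an annotated start (chromosome 9, 48722140 to 48725608) with 77.8, 93.0 and 116 CPM in d22 and 47.4, 52.7 and 68.0 in pbs. The groups were apart, and the log2 fold change was 0.79 ± 0.12 (SE, edgeR adjusted p = 0.00336), kept with any library left out. Etv6, an ETS family repressor, rose by 1.01 and Lhx6, a LIM homeobox gene, by 1.03 (edgeR adjusted p = 0.0307 and 0.0208). Cbfa2t3 encodes a corepressor that recruits histone deacetylases, and was the only called member of 13 regions in the chromatin and histone acetylation list. Its CpG-rich inner start had 38.4, 42.5 and 46.4 CPM in d22 and 50.5, 59.9 and 68.0 in pbs. The groups did not overlap, and the log2 fold change was -0.51 ± 0.11 (SE, edgeR adjusted p = 0.0385). Zfp395, a zinc finger gene, fell by 0.93, and Rbfox2, a splicing regulator, by 0.87 (edgeR adjusted p = 0.00620 and 0.0402). Leaving out a library ended the call of Cbfa2t3 in 9 of 12 cases, all but d22 1, d22 4 and pbs 4 (adjusted p up to 0.104). It ended that of Lhx6 without d22 6 or pbs 3, those of Etv6 and Rbfox2 in 7 and 10 of 12 cases, and that of Zfp395 in none. In the authors' fold enrichment the Zfp395 difference turned to 0.10 and did not pass (limma adjusted p = 0.820).

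The other called regions lay in genes of varied function. Fermt2, which encodes the integrin activator kindlin-2, fell from 30.5, 37.0 and 42.1 CPM in pbs to 13.2, 14.3 and 20.1 in d22, with no overlap. Its log2 fold change was -1.22 ± 0.18 (SE, edgeR adjusted p = 0.00336). Bace1, a membrane protease gene, had 36.0, 55.1 and 61.6 CPM in d22 and 69.2, 89.2 and 93.4 in pbs, again with no overlap. Its log2 fold change was -0.70 ± 0.12 (SE, edgeR adjusted p = 0.00629), and both calls were kept with any library left out. In the authors' fold enrichment the Fermt2 difference turned to 0.02 and did not pass (limma adjusted p = 0.977). Cntrl, which encodes the centrosomal protein centriolin, fell by 1.03, Ank3, ankyrin-G, by 0.69, and Cd1d1, a lipid antigen presenting molecule, by 0.58. The higher ones were Cmah, which encodes the hydroxylase that forms N-glycolylneuraminic acid, at a log2 fold change of 1.95, Uvrag, an autophagy gene, at 1.18, and Ttbk1, a tau and tubulin kinase gene, at 1.16. In Cmah 2 d22 libraries lay within the range of pbs, and 9 of 12 omissions of a library ended the call (adjusted p up to 0.107). Anks1, Lpin1, Iqgap1 and Ccdc162 lie outside the rule for named regions and were added after their values were seen. The Anks1 region, which holds the start of a noncoding gene, had 144, 152 and 155 CPM in d22 and 77.1, 91.1 and 110 in pbs, a log2 fold change of 0.72 ± 0.08 (SE, edgeR adjusted p = 0.000443). Iqgap1, a cytoskeletal scaffold gene, rose by 0.67 at an inner start and Ccdc162 by 0.48 (edgeR adjusted p = 0.0414 and 0.0360). The Iqgap1 difference was -0.07 in the authors' fold enrichment (limma adjusted p = 0.872). Of the regions given by log2 fold change alone, those of Slc3a1, Spns2, Cntrl, Ank3, Cd1d1, Uvrag, Ttbk1, Iqgap1 and Ccdc162 each lost their call in 4 to 10 of the 12 omissions of a library (adjusted p up to 0.116).

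The tag count of a region joins its called length and its tag density. All 34 had the same sign in tags, in called length and in tags per kb. Among the 14 lower regions the median log2 difference was -0.74 in length and -0.18 in tags per kb. Among the 20 higher regions it was 0.49 in length and 0.45 in tags per kb. Length was not centred by library, and its median log2 difference was -0.09 over intragenic regions and -0.08 over all shared regions. In Fermt2, for instance, peaks covered 1009 ± 416 bp in d22 against 2331 ± 485 bp in pbs (SD, n = 6 each), while tags per kb differed by -0.02. The second Aacs region was the reverse case, with 4603 ± 459 bp and 4388 ± 762 bp (SD, n = 6 each) and a log2 difference of 0.77 ± 0.13 (SE) in tags per kb. Tested alone, tags per kb was called in 3 intragenic regions, 0.161% against 0.0727% of all shared regions. All 3 were higher in d22, where the share of all shared regions was 0.0485%, and 0 were lower, against 0.0242%. These were the second Aacs region, Ccdc57 (0.74) and Zbtb16 (0.59; limma adjusted p = 0.0106, 0.00755 and 0.0189). Called length was called in 0 intragenic regions, 0.0% of all shared regions (limma). At an unadjusted p under 0.05 there were 174 intragenic regions, 9.33% against 6.81% of all. Among the 359 intragenic regions with exactly 1 peak in every library, 0 passed in tag count (edgeR), as did 0 of all 2599 shared regions with 1 peak in every library. At an unadjusted p under 0.05 there were 41 of the 359. Only 1 of the 34 called regions was in this set (edgeR adjusted p = 0.0791 there), so the others could not be retested in it.

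**Figure D4:**
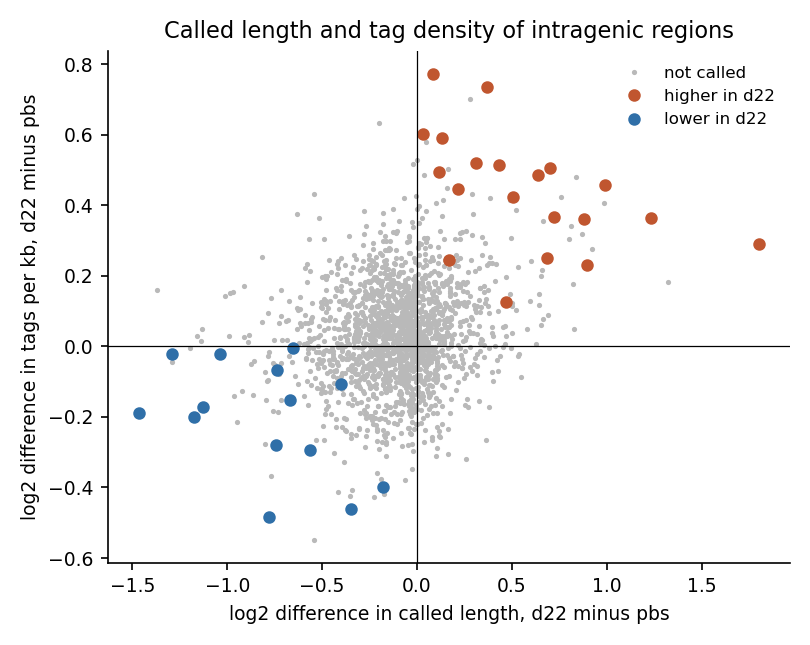
Log2 difference d22 minus pbs in called length (x axis) and in tags per kb of called peak (y axis) for 1865 intragenic regions (points), with the 34 called in tag count coloured. The called regions lie in the quadrants where both differences have one sign, and the 14 lower ones have a median of -0.74 in length and -0.18 in tags per kb.

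A region at an end of the host gene was shared by all libraries for 20 of the 34 called regions. It had the same sign as the intragenic region in 17 of 20 and was called in 4, counting the Aacs end region for both Aacs regions. Beside this, 0.547% of shared regions at gene ends were called, and 3.36% of those 6000 bp or wider at any position. How often signs match for uncalled intragenic regions is not given here, so the 17 of 20 has no background. At that end of Aacs, CPM averaged 168 (SD 23.3) over the 6 d22 libraries and 111 (SD 5.54) over the 6 pbs libraries, a log2 fold change of 0.59 (edgeR adjusted p = 0.00477). At the end of Cbfa2t3 they were 35.9 ± 14.6 and 76.7 ± 11.0 (SD, n = 6 each), a log2 fold change of -1.13 (edgeR adjusted p = 0.00982). This was more than at its inner start. The end region of Zfp395 fell by 0.52 (edgeR adjusted p = 0.0240), and that of Gpam differed by -0.60 and did not pass (edgeR adjusted p = 0.0621). The ends of Cmah (0.08), Uvrag (0.07) and Etv6 (-0.02) were near 0. Whether a region and its host end differ in their change was not tested.

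**Figure D5:**
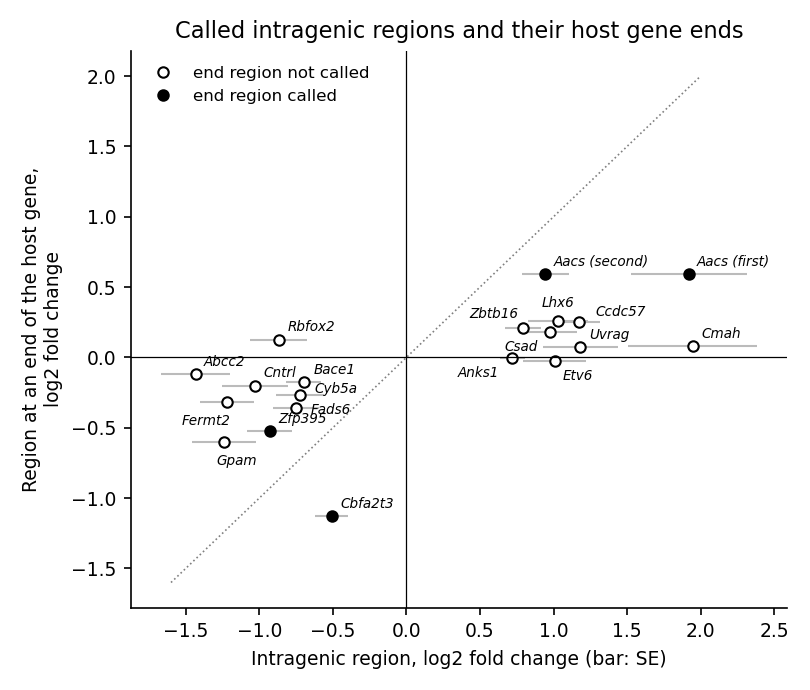
Log2 fold change d22 minus pbs of the called intragenic region (x axis, bars SE) and of the shared region at an end of the same host gene (y axis) for the 20 called regions that have one; filled points mark end regions called themselves, and the dotted line marks equal change. Host ends with the same sign make up 17 of 20, and Cbfa2t3 is below the line at -1.13.

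The other 14 gene lists held 145 intragenic regions, of which 0 were called (edgeR) and 20 had an unadjusted p under 0.05, beside 1.82% and 12.8% of all intragenic regions. The lists cover hepatocyte transcription factors, nuclear receptors, the clock, insulin signalling, glucose use, gluconeogenesis, fatty acid oxidation, cholesterol, xenobiotic metabolism, amino acids, secreted proteins, stress genes, Wnt and related pathways, and the cytoskeleton. In Khk, the fructokinase gene, the intragenic region differed by 0.86 ± 0.26 (SE) and did not pass (edgeR adjusted p = 0.166), while its end region rose by 0.50 (edgeR adjusted p = 0.00553). Mlxipl and Srebf1 encode the sugar- and insulin-responsive activators ChREBP and SREBP-1. Both held inner-start regions, with log2 differences of -0.07 ± 0.11 and 0.33 ± 0.21 (SE) that did not pass (edgeR adjusted p = 0.885 and 0.617). These 2 genes were chosen after their values were seen.

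The 6 regions of fatty acid oxidation genes had a median log2 difference of -0.41, with 1 of 6 positive and 0 called (edgeR; 2 had an unadjusted p under 0.05, both lower). Cpt1a, the carnitine palmitoyltransferase that admits fatty acids to mitochondria, held 2 of them. The first (chromosome 19, 3327819 to 3332379) had 12.0, 15.1 and 26.6 CPM in d22 and 15.3, 33.4 and 55.5 in pbs. The groups overlapped and the log2 difference was -1.01 ± 0.30 (SE, edgeR adjusted p = 0.147). Slc25a13 encodes citrin, the mitochondrial carrier of aspartate and glutamate that serves the urea cycle. Its region had 11.4, 30.9 and 40.9 CPM in d22 and 44.3, 55.0 and 76.9 in pbs, without overlap. The log2 difference of -0.95 ± 0.23 (SE) did not pass (edgeR adjusted p = 0.0606), whereas the end region of the gene fell by 0.82 (edgeR adjusted p = 0.00733).

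The thresholds of the rule cut through a continuous range. The widest members were regions of Agpat3 (5993 bp) and Palld (5998 bp), and the nearest excluded by width were in Kcnk5 (6002 bp) and Nectin1 (6012 bp). The members nearest a coding gene end were in Ccnd2 (1022 bp) and Pcgf2 (1026 bp), and those just excluded were in Trmt1 (998 bp) and Naa20 (999 bp). Counting only regions over 2 kb from gene ends left 1692 regions with 33 calls (1.95%). Counting only those under 4000 bp left 1489 with 20 (1.34%). Beside both stands 1.01% of all shared regions.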

How the data were processed

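Only the 12 peak tables of H3K9ac ChIP-seq libraries (6 titled d22, 6 titled pbs) were analysed; the 2 pooled inputs enter through the authors' peak calling. The submitters' processing notes name CASAVA 1.8, Novoalign, MACS 1.4.2 and the build mm10. Peaks were listed at p-values up to 1e-05 with at most 1 tag per position, and each library was called alone, per the file headers. The deposited tables give for each peak a raw count of tags, a score (-10 log10 of its p-value), an enrichment ratio (fold over background) and, as a percent, the caller's false discovery rate. All are the authors' values, and the last was not used.

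Overlapping peaks were merged, and a library's tags and called length in a region are sums over its peaks there. Host genes came from a RefSeq table of GRCm38.p6 (49997 genes, 21900 coding) and starts from 32851 RefSeq starts. These cover 17492 of the coding genes and no gene of chromosome 18. Strand was known only for hosts with a listed start. The planned search for motifs around summits was replaced by the 250 bases before starts, since no genome sequence was used here. For the tag counts of all 12375 shared regions the test was edgeR 4.0.16 (R 4.3.3), the robust quasi-likelihood fit with TMM factors and the title group as its term. CPM are scaled to tags in shared regions. Log2 called length, not centred, and log2 tags per kb, centred on each library's median, were tested with limma 3.58.1. P-values were adjusted by Benjamini-Hochberg over all 12375 regions, at 0.05. Single values per library were compared by exact permutation, 6 against 6 (smallest p 0.00216) or by sign flips over 12 libraries. Within a title group, no 2 libraries were copies of each other (chi-square per degree of freedom 2.41 to 7.58 over 30 pairs). The counts are sums over each library's own peaks, so this check could not exclude technical duplicates of the same liver. Pairs between the groups were not checked. On simulated data with 12375 regions for d22 minus pbs, the test found 53 of 100 regions altered 1.5-fold, found 92 of 100 altered 2-fold, and made 7 false calls.

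Named regions are the called ones up to the 15 largest per direction that kept 1 sign on leaving out each library, the 10 highest in tags per kb, the hosts with the most regions, up to 3 regions per gene list with the smallest p, and those beside each threshold. The members and lists were chosen with earlier results of these data known. Alternatives covered scaling, DESeq2 1.42.0, filters, peak score, merging, distance, width and leaving out each library. The region of 1 listed gene is not reported here.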

Additional observations from a re-analysis of the deposited data

Results flagged for a closer look

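Each value below stood apart from the other 5 libraries of its title group by a gap that exceeded Dixon's 95% critical value, as a share of the group's range. There were 15 such values in 136 groups examined, and chance gives about 1 in 20. Library pbs 3 had 54.4 tags per kb in intragenic regions against 41.9 to 45.3 in the other pbs libraries, 55.5 in intergenic regions against 41.1 to 45.6, and 47.8 in intragenic regions without a start against 37.7 to 40.1. Library d22 2 had 73.1 tags per kb at gene ends against 55.5 to 61.6.

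Among regions called between the groups, the flags in CPM were as follows. In d22 4, Cdkn1a had 324 against 149 to 181 in the other d22 libraries, and Bace1 36.0 against 52.3 to 61.6. Bace1 had 69.2 in pbs 6 against 88.2 to 93.4 in the other pbs libraries. Cmah had 14.5 in pbs 2 against 5.82 to 8.20, and Lhx6 had 36.5 in pbs 5 against 20.4 to 25.1. Gpam had 38.4 in d22 1 against 15.03 to 22.9, and Spns2 had 91.1 in d22 3 against 68.3 to 74.7. The calls of Bace1 and Gpam were kept whichever library was left out.

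Among uncalled regions, Gm38821 had 151 CPM in d22 2 against 104 to 118 in the other d22 libraries. Tef, a clock-controlled transcription factor gene, had 54.1 in d22 4 against 102 to 118. Ppara had 8.72 in pbs 3 against 37.1 to 52.0 in the other pbs libraries, and Mlxipl had 89.9 in pbs 2 against 118 to 134.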

How the results depend on the processing

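The count of 34 called intragenic regions changed by over 1.5 times under several alternatives. It was 70 (3.75%, beside 3.67% of all shared regions) when scaled by library totals alone, and 61 (3.27%, beside 2.20%) with DESeq2. With the authors' fold enrichment it was 118 (6.33%, beside 9.87%). Peaks of score 100 or more gave 19 of 1162 regions (1.64%, beside 0.878% of all shared regions so built). Widths under 4000 bp gave 20 (1.34%, beside 1.01% of shared regions of any width). As tags per kb there were 3 (0.161%, beside 0.0727%). With exactly 1 peak in every library there were 0 of 359 (0 of 2599 over all shared regions). Leaving out 1 library gave 16 (0.858%, beside 0.558%) to 36 (1.93%, beside 1.12%). The other alternatives gave 29 to 38. Of the 34, 34 kept their call under DESeq2, 27 under library totals and 12 under fold enrichment. Fold enrichment reversed Iqgap1 (-0.0708), Fermt2 (0.0210) and Zfp395 (0.0975), and among uncalled regions Gm38821 (-0.83, adjusted p = 0.00191), Rora (-0.38), Irs1 (0.38), Cpt1a (0.15) and Fdft1 (0.17). Tags per kb reversed Ppargc1b (0.0186) and Irs1 (0.0147), and library totals Rora (-0.00811). The causes were not tested, beyond the smaller number of regions in the narrower sets.

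Called length gave 0 to 5 calls and tags per kb 1 to 3 on leaving out 1 library. The 5, without d22 1, are 0.268%, beside 0.283% of all shared regions. The 1, without d22 2, is 0.0536%, beside 0.0323%. The intragenic minus intergenic difference of 0.471 was 4.00 with peaks of score 100 or more (exact sign-flip permutation p = 0.000488) and -0.41 over 2 kb from gene ends (p = 0.321 by the same permutation), and the length difference from gene ends was -23.7 bp with peaks of score 100 or more (p = 0.238, permutation). No other comparison of 1 value per library crossed its threshold. Leave-one-out ranges were -20.6 to -19.1 and 0.149 to 0.617 tags per kb against gene ends and intergenic regions, -246.7 to -224.6 bp in length, 18.8 to 20.2 between regions with and without an inner start, and, for d22 minus pbs, 0.00779 to 0.188 percentage points, -4.77 to -1.48 tags per kb and -219.9 to -74.4 bp.

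Replicate numbers did not pair the libraries, since the correlations of same-numbered deviations were -0.007 to 0.157 and only number 2 correlated best with its own. With the number as a replicate block there were 38 calls (23 higher, 15 lower), 26 of them among the 34. This is 2.04%, beside 1.03% of all shared regions. Length then gave 0 calls and tags per kb 3 (0.161%, beside 0.0566%). Depth limits mostly the low regions, since 1403 of 1865 had a mean of at least 50 tags.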

Other observations

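Several regulators of hepatocyte metabolism held acetylated inner starts, named here after their values were seen. Nr1h3 encodes LXRα, the oxysterol receptor that drives cholesterol disposal and lipogenesis, and its inner-start region (chromosome 2, 91191754 to 91195706) ranked 47 of 1865 in level, at 94.1 tags per kb. It had 118, 138 and 171 CPM (lowest, median and highest) in d22 and 132, 149 and 168 in pbs, and the groups overlapped (edgeR adjusted p = 0.783). Lifr, the receptor of leukemia inhibitory factor, carried an inner-start region at 59.5 tags per kb, with 0 libraries showing a peak at the 5′ end of its span. Arntl, which encodes the clock activator BMAL1, likewise had a peak at its 5′ end in 0 libraries. It held an inner-start region at 46.8 tags per kb and a neighbouring region without a start at 67.3.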
